A study of Mus musculus with 23 samples.

Results

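Autophagy machinery is described here through 35 genes that encode its core proteins and several of its cargo receptors. They were listed by name and grouped by role, with earlier results of these data known. The roles are the ULK initiation complex (5 genes), the class III PI3-kinase complex (5), lipid transfer and membrane supply (5), the conjugation enzymes (10), the Atg8 proteins (5) and the cargo receptors (5). All 35 were found among the 55401 genes of the count table, and all 35 were among the 18083 genes that passed the filter on low counts.

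Macroautophagy encloses cytoplasm, organelles or microbes in a double membrane, the autophagosome, which fuses with lysosomes. The ULK kinase complex starts it, the lipid kinase complex marks the membrane with phosphatidylinositol 3-phosphate, lipid-transfer proteins feed the growing membrane, and a ubiquitin-like conjugation system attaches Atg8 proteins to it. Cargo receptors hold cargo, which is often ubiquitinated, with one end and Atg8 proteins with the other. In macrophages the pathway is known for limiting inflammasome activity, for clearing damaged mitochondria and for taking up intracellular bacteria.

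The series is RNA-seq of total RNA from mouse bone marrow-derived macrophages, that is, macrophages grown from marrow in culture. Cells of mice labelled Selenow knock-out and cells of wild-type mice were left untreated (0 h) or were given lipopolysaccharide (LPS, a Toll-like receptor 4 ligand from bacteria) at 100 ng/ml for 4, 8 or 24 h. Each of the 8 groups has 3 libraries, except labelled knock-out cells at 24 h, which have 2. Selenow encodes selenoprotein W, a small thioredoxin-like selenoprotein. The labelled knock-out groups hold libraries 13 to 15 (0 h), 16 to 18 (4 h), 19 to 21 (8 h) and 22 and 23 (24 h). The wild-type groups hold libraries 1 to 3 (0 h), 4 to 6 (4 h), 7 to 9 (8 h) and 10 to 12 (24 h). The labels give no strain, age or sex of the mice, and no statement that libraries are separate animals or cultures, so each p-value measures spread between libraries only. No untreated library carries a later time, and hours in culture and hours of LPS cannot be told apart. In bulk RNA, fewer cells of a type and less RNA per cell cannot be told apart either.

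Depth was even, with 39001456 to 41819953 counted fragments per library, of which the 35 genes took 0.270% to 0.488%. Levels are in CPM, counts per 1000000 with TMM scaling between libraries. By counting error alone, a gene with no count in a library could stand at up to 0.0769 CPM before TMM scaling. The TMM factors ran from 0.786 (library 18) to 1.36 (library 14), so the limit in scaled CPM differs between libraries. Against the wild-type mean of its time, Selenow itself stood at 32.6% to 63.9% in 7 labelled knock-out libraries, at 82.4% to 102% in the labelled knock-out libraries 13, 16, 19 and 22, and at 85.3% to 113% in the 12 wild-type libraries. Those 4 libraries therefore went against their label by this gene, and "labelled knock-out" is used throughout. A further split of the libraries crosses both genotypes. In deviations from the group means over 8332 genes, libraries 14, 17, 20 and 23 of the labelled knock-out moved together with libraries 3, 6, 9 and 12 of the wild type at the same time (correlations of 0.774, 0.790, 0.803 and 0.742). At each time the pair across genotypes with the highest correlation was taken, so these values are selected maxima. The deviations of the labelled knock-out libraries at 24 h mirror each other by construction. Pairs were sought within each time only, and whether they belong together across times was not tested. The libraries of these pairs form what is called the second set below, and the other 15 libraries form the first. What sets them apart is not given in the labels. Macrophage markers (8 genes) summed to 14362.5 to 28023 CPM in labelled knock-out and 12831 to 25882 CPM in wild-type libraries, while T-cell markers (3 genes) summed to at most 0.123 and 0.0903 CPM.

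LPS moved most of the machinery, some genes down and others up. After 4 h the initiation kinases, the lipid-transfer proteins and several conjugation enzymes had fallen, while the receptors Sqstm1, Optn and Tax1bp1 had risen several fold. By 24 h most of the genes that had fallen at 4 h were no longer called below untreated cells. In edgeR's quasi-likelihood test, adjusted by Benjamini-Hochberg over the 18083 genes and called at an adjusted p under 0.05, 22 of 35 genes fell and 9 rose at 4 h in labelled knock-out cells. Of all genes tested, 34.1% were called lower and 28% higher in that comparison. In wild-type cells 19 fell and 9 rose at 4 h, against 34.8% and 28.2% of all genes. The median log2 fold change of the 35 genes at 4 h was -0.58 in labelled knock-out and -0.53 in wild-type cells, where the medians of all genes tested were -0.10 and -0.12. The same 19 genes fell in both genotypes, the same 8 rose in both, and no gene was called in opposite directions.

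At 8 h the machinery was split. In labelled knock-out cells 12 genes were below and 13 above untreated cells (31.9% and 28.3% of all genes), and in wild-type cells 10 were below and 18 above (35.1% and 30.3%). The median over the 35 genes was 0.062 in labelled knock-out cells, which turned to -0.017 with upper-quartile scaling, and 0.21 in wild-type cells. All genes tested had a median of -0.089 and -0.10. At 24 h higher calls prevailed. There were 13 higher and 5 lower genes in labelled knock-out cells (22.6% and 20.8% of all genes) and 19 higher and 3 lower in wild-type cells (27.8% and 27.3%). The labelled knock-out count at 24 h rests on few libraries: 6 higher and 2 lower remained called without library 23, 8 and 2 without libraries 13, 16, 19 and 22, and 8 higher with upper-quartile scaling. The count of lower genes there ran from 2 without library 13 or 15 to 8 without library 14, and was 3 without library 22. Lower genes in wild-type cells at 24 h numbered 6 without library 3. When the fit also took in the library sets (1 term per time), 10 genes were lower in labelled knock-out and 6 in wild-type cells at 24 h (28.8% and 34.3% of all genes). In the first set alone these were 10 and 8 (23.1% and 28.7%).

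Markers of other cells moved with LPS as well. At 24 h 7 of 8 markers of neutrophils and their precursors were lower and 1 (Mmp8) higher than untreated in each genotype, with median log2 fold changes of -4.33 in labelled knock-out and -4.79 in wild-type cells. Their sum was 169.7 to 194 CPM at 24 h in labelled knock-out cells, against 202 to 224 CPM untreated, and 126 to 333 CPM in wild-type cells, against 120.4 to 151 CPM untreated. Of 4 dendritic-cell markers, 2 (Xcr1 and Ccr7) were higher and 1 (Flt3) lower at 24 h in each genotype. They summed to 4.19 to 16.7 CPM in labelled knock-out cells, against 0.965 to 1.51 CPM untreated, and to 6.57 to 22.3 CPM in wild-type cells, against 0.805 to 1.67 CPM untreated. None of these markers was at 0 in every library, and their part in the LPS responses of autophagy genes was not tested.

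The recovery was measured directly as 24 h against 4 h. By this contrast 21 genes were higher and 4 lower at 24 h in labelled knock-out cells (29.5% and 26.1% of all genes), with 2 lower without library 22. In wild-type cells 23 were higher and 4 lower (32.1% and 29.5%). The medians of the 35 genes were 0.72 and 0.68 on the log2 scale, against 0.04 and 0.027 for all genes. Counted gene by gene, 18 of 35 in labelled knock-out and 16 of 35 in wild-type cells were lower at 4 h than untreated, higher at 24 h than at 4 h, and not called lower than untreated at 24 h. The 4 h libraries are shared by both contrasts, so a low value at 4 h enters both. How many of all genes tested took this course was not counted, so these counts have no background to be read against. A gene not called lower at 24 h can also still stand below untreated cells. Ulk1 in labelled knock-out cells was not called, yet its 24 h libraries all lay below the untreated ones. Only Ulk2 was higher at 24 h than at 4 h and still lower than untreated, in each genotype.

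**Figure D1:**
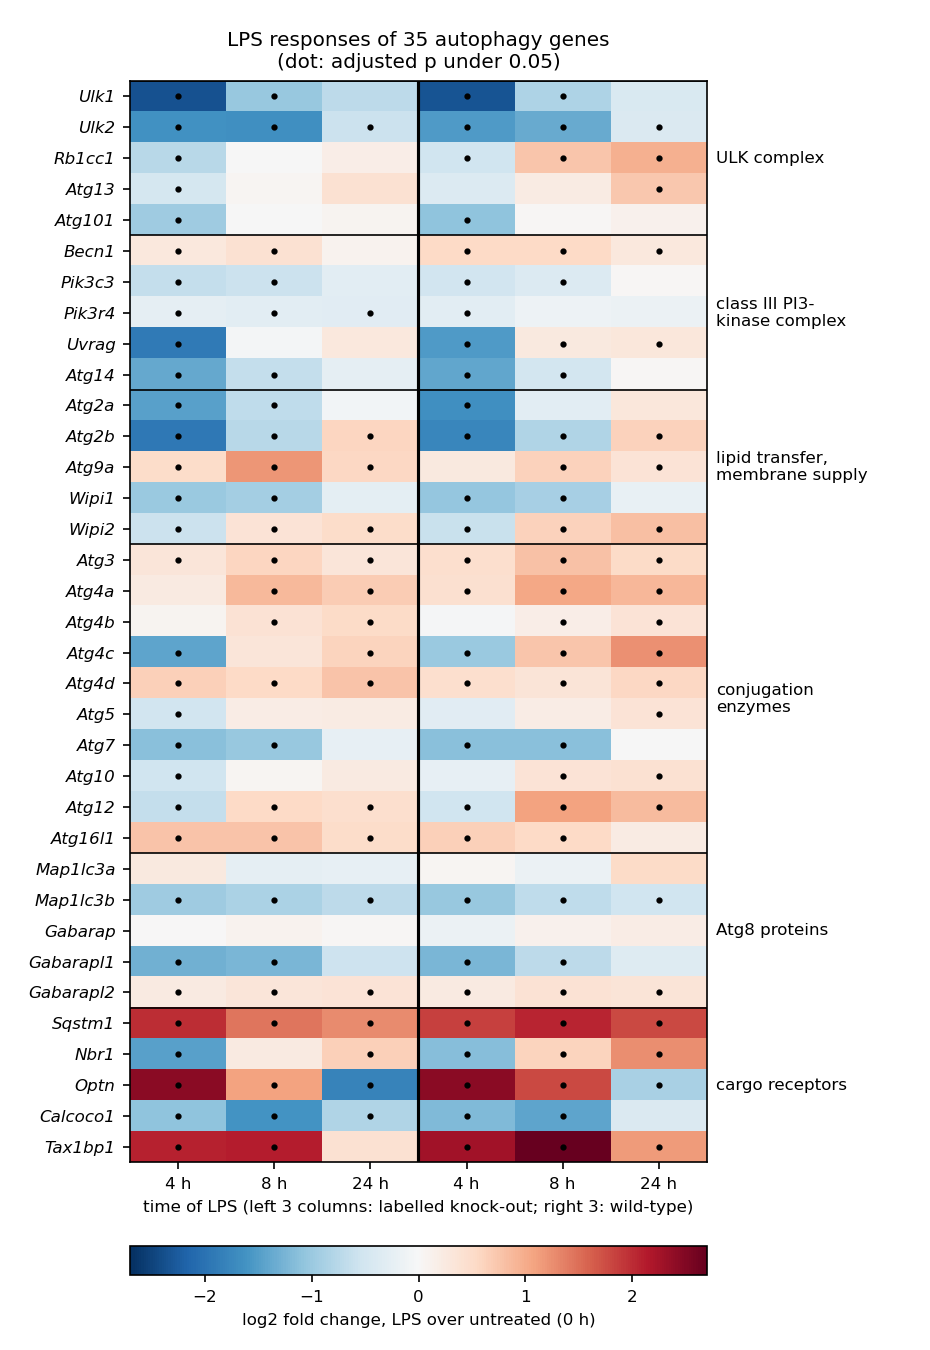
Log2 fold change of the 35 genes after 4, 8 and 24 h of LPS over untreated cells (colour, red higher and blue lower; left 3 columns labelled knock-out, right 3 wild-type), with a dot where the adjusted p of edgeR's test was under 0.05 and genes grouped by role. Blue fills most of the 4 h columns outside the cargo receptors, where Sqstm1, Optn and Tax1bp1 are red, and the 24 h columns are pale or red for most genes.

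The heat map of log2 fold changes shows this order of events. Its left and right sides, one per genotype, look alike at 4 h, and at 24 h no conjugation enzyme carries a dot for a lower call in either.

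Of the initiation complex, all 5 genes were called lower at 4 h in labelled knock-out cells and 4 of 5 in wild-type cells, where 34.1% and 34.8% of all genes were, and all 5 were higher at 24 h than at 4 h in both. Ulk1 and Ulk2 encode the serine/threonine kinases of the complex, which nutrient and energy sensors regulate. Ulk1 in labelled knock-out cells was at 51.4, 29.5 and 60.5 CPM at 0 h, then 8.03, 12.04 and 7.64 at 4 h, then 23.9, 22.2 and 23.5 at 8 h, then 28.6 and 29.4 at 24 h. Ulk1 in wild-type cells was at 57.8, 63.1 and 31.9 CPM at 0 h, then 9.88, 9.55 and 10.9 at 4 h, then 31.5, 30.3 and 24.6 at 8 h, then 35.5, 32.1 and 47.8 at 24 h. Every 4 h library lay below every untreated library in each genotype, and the lowest untreated values were those of the second library set (libraries 14 and 3). The fold change at 4 h was -2.35 ± 0.26 (log2, ± SE) in labelled knock-out cells (adjusted p = 3.05e-07) and -2.33 ± 0.26 in wild-type cells (adjusted p = 3.05e-07, edgeR). At 8 h it was -1.02 ± 0.25 and -0.82 ± 0.25 (adjusted p = 0.0017 and 0.00739). At 24 h Ulk1 was not called in either genotype, at -0.70 ± 0.28 and -0.40 ± 0.25.

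Ulk2 was called lower at all 3 times in both genotypes. Ulk2 in labelled knock-out cells was at 54.4, 46.4 and 54.8 CPM at 0 h, then 15.7, 18.7 and 15.9 at 4 h, then 16.6, 16.3 and 16.5 at 8 h, then 37.4 and 31.5 at 24 h. Ulk2 in wild-type cells was at 52.5, 51.9 and 48.3 CPM at 0 h, then 15.8, 17.1 and 20.4 at 4 h, then 17.8, 19.5 and 22.1 at 8 h, then 36.4, 36.5 and 43.8 at 24 h. The 4 h and 8 h libraries all lay under the untreated ones with a wide gap, and the 24 h libraries lay between. In labelled knock-out cells the log2 fold change was -1.63 ± 0.12 at 4 h, -1.65 ± 0.12 at 8 h and -0.59 ± 0.13 at 24 h (adjusted p = 1.42e-09, 2.05e-09 and 0.00142). Wild-type cells gave -1.52 ± 0.12, -1.36 ± 0.12 and -0.39 ± 0.12 (adjusted p = 3.07e-09, 1.64e-08 and 0.00866).

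Atg101, which stabilises Atg13 in the complex, was called lower at 4 h and at no later time. Atg101 in labelled knock-out cells was at 18.4, 16.96 and 18.7 CPM at 0 h, then 8.43, 8.901 and 10.6 at 4 h, then 18.6, 16.8 and 18.5 at 8 h, then 19.8 and 17.98 at 24 h. Atg101 in wild-type cells was at 18.7, 17.1 and 14.5 CPM at 0 h, then 7.82, 8.28 and 7.71 at 4 h, then 16.3, 19.1 and 16.1 at 8 h, then 18.3, 17.8 and 18.3 at 24 h. All 6 libraries of 4 h lay below all 17 others. Its log2 fold change at 4 h was -0.95 ± 0.11 in labelled knock-out and -1.08 ± 0.11 in wild-type cells (adjusted p = 4.91e-07 and 9.85e-08), and at 8 and 24 h it was between -0.0032 and 0.11 in both. Rb1cc1 (FIP200), the scaffold of the complex, and Atg13, its adaptor, changed by smaller amounts. Rb1cc1 was -0.75 ± 0.22 at 4 h in labelled knock-out and -0.55 ± 0.22 in wild-type cells, and 0.17 ± 0.25 and 0.96 ± 0.22 at 24 h, where it was called higher in wild-type cells (adjusted p = 0.00131). Its 4 h call in wild-type cells was lost without library 1, 2, 4 or 6 (adjusted p = 0.15, 0.141, 0.138 and 0.0737). Atg13 was -0.47 ± 0.19 at 4 h in labelled knock-out cells, a call lost without any of libraries 2, 4, 7, 13, 15, 16 and 18 (adjusted p up to 0.206, without 15), and -0.37 ± 0.19 in wild-type cells, where it was not called. It rose at 24 h in wild-type cells (0.74 ± 0.19, adjusted p = 0.00338).

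In the class III PI3-kinase complex, 4 of 5 genes fell at 4 h in each genotype and Becn1 rose. Of all genes, 34.1% were lower and 28% higher at 4 h in labelled knock-out cells and 34.8% and 28.2% in wild-type cells. Uvrag and Atg14 encode alternative subunits, of which Atg14 directs the complex to forming autophagosomes and Uvrag to endosomes and later steps. Uvrag in labelled knock-out cells was at 88.3, 72.6 and 91.6 CPM at 0 h, then 22.3, 22.9 and 22.5 at 4 h, then 80.4, 82.1 and 80.9 at 8 h, then 96.3 and 109.7 at 24 h. Uvrag in wild-type cells was at 80.98, 80.00 and 69.02 CPM at 0 h, then 28.3, 28.4 and 23.3 at 4 h, then 107, 92.8 and 77.1 at 8 h, then 96.9, 93.6 and 92.05 at 24 h. The 4 h values were far below all others in both genotypes and the 8 h values were back in the untreated range or above it. Its log2 fold change at 4 h was -1.899 ± 0.12 in labelled knock-out and -1.52 ± 0.12 in wild-type cells (adjusted p = 2.01e-10 and 2.65e-09), and 24 h against 4 h gave 2.19 ± 0.13 and 1.82 ± 0.12. In wild-type cells Uvrag was also called slightly higher than untreated at 8 h (0.27 ± 0.12) and 24 h (0.30 ± 0.12). The 8 h call was lost without any of 20 libraries (adjusted p up to 0.292, without library 7) and the 24 h call without library 3, 10, 11 or 12 (up to 0.145, without library 3).

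Atg14 in labelled knock-out cells was at 17.8, 12.1 and 21.4 CPM at 0 h, then 6.14, 7.25 and 6.38 at 4 h, then 11.5, 10.6 and 10.8 at 8 h, then 15.3 and 13.6 at 24 h. Atg14 in wild-type cells was at 18.1, 18.1 and 11.8 CPM at 0 h, then 6.12, 5.91 and 6.196 at 4 h, then 12.5, 12.1 and 9.59 at 8 h, then 16.4, 16.7 and 15.9 at 24 h. The 4 h libraries lay below all untreated ones, and the 24 h libraries overlapped the untreated range. Its log2 fold change was -1.38 ± 0.18 and -1.396 ± 0.18 at 4 h (adjusted p = 2.22e-06 and 1.87e-06) and -0.64 ± 0.18 and -0.49 ± 0.18 at 8 h in labelled knock-out and wild-type cells. The 8 h call in wild-type cells was lost without library 1, 2 or 9 (adjusted p = 0.0908, 0.0907 and 0.1). Among the shared subunits, Pik3c3 (VPS34), the catalytic lipid kinase, fell too, with log2 fold changes of -0.63 ± 0.10 and -0.53 ± 0.10 at 4 h and -0.59 ± 0.10 and -0.36 ± 0.10 at 8 h. Its rise between 4 and 24 h was called in both genotypes, in labelled knock-out cells only while library 22 was kept (adjusted p = 0.104 without it). Pik3r4 (VPS15), the regulatory subunit, was called lower at 3 times in labelled knock-out cells and at 1 in wild-type cells, at -0.25 ± 0.11, -0.29 ± 0.11 and -0.32 ± 0.12 at 4, 8 and 24 h and, in wild-type cells, -0.28 ± 0.11 at 4 h. Each of these 4 calls of Pik3r4 was lost without 1 of several libraries, with adjusted p up to 0.217 (without library 15), 0.129 (without 15), 0.385 (without 23) and 0.16 (without 2).

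Becn1, the core scaffold of the complex, went the other way. Becn1 in labelled knock-out cells was at 68.9, 64.6 and 67.5 CPM at 0 h, then 87.1, 72.6 and 84.1 at 4 h, then 91.7, 83.2 and 91.4 at 8 h, then 70.3 and 72.5 at 24 h. Becn1 in wild-type cells was at 55.8, 55.5 and 51.6 CPM at 0 h, then 77.6, 82.4 and 75.4 at 4 h, then 79.6, 78.8 and 77.3 at 8 h, then 64.7, 66.4 and 67.5 at 24 h. All libraries at 4 and 8 h were above the untreated ones in each genotype. The log2 fold change was 0.28 ± 0.078 at 4 h and 0.41 ± 0.078 at 8 h in labelled knock-out cells (adjusted p = 0.00448 and 0.000193) and 0.53 ± 0.078 and 0.53 ± 0.078 in wild-type cells (adjusted p = 8.62e-06 and 9.03e-06). Because strand was not used in counting and Cntd1 on the opposite strand overlaps 43.9% of its exonic length, reads of the 2 genes cannot be told apart there. Cntd1 had 49.5% as many counts as Becn1.

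Lipid transfer and membrane supply held some of the deepest falls. Atg2a, Atg2b, Wipi1 and Wipi2 fell at 4 h in both genotypes, and Atg9a did not. Atg2a and Atg2b encode the bridge-like proteins that carry lipid from the endoplasmic reticulum into the growing membrane. Atg2b in labelled knock-out cells was at 28.6, 25.8 and 27.2 CPM at 0 h, then 6.42, 8.74 and 6.28 at 4 h, then 17.5, 11.05 and 19.9 at 8 h, then 39.96 and 40.9 at 24 h. Atg2b in wild-type cells was at 27.8, 25.4 and 28.3 CPM at 0 h, then 8.18, 8.01 and 7.84 at 4 h, then 18.5, 16.97 and 10.8 at 8 h, then 40.7, 38.3 and 45.9 at 24 h. Values were lowest at 4 h, intermediate at 8 h and above all untreated libraries at 24 h, in both genotypes without overlap between times. The log2 fold changes were -1.93 ± 0.20, -0.75 ± 0.19 and 0.57 ± 0.21 at 4, 8 and 24 h in labelled knock-out cells (adjusted p = 9.82e-08, 0.00221 and 0.0326). Without any of libraries 13, 14, 15, 22 and 23 the 24 h call there was lost (adjusted p up to 0.132, without 23). Wild-type cells gave -1.76 ± 0.20, -0.82 ± 0.19 and 0.62 ± 0.19 (adjusted p = 2.75e-07, 0.00101 and 0.00967). From 4 h to 24 h Atg2b gained 2.498 ± 0.21 in labelled knock-out and 2.38 ± 0.20 in wild-type cells, log2.

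Atg2a in labelled knock-out cells was at 69.5, 44.2 and 82.6 CPM at 0 h, then 19.6, 24.8 and 26.3 at 4 h, then 39.3, 38.8 and 43.5 at 8 h, then 59.9 and 65.3 at 24 h. Atg2a in wild-type cells was at 78.7, 82.6 and 50.4 CPM at 0 h, then 21.9, 22.3 and 22.96 at 4 h, then 68.8, 61.98 and 41.8 at 8 h, then 89.5, 76.4 and 96.1 at 24 h. As with Ulk1, the untreated libraries 14 and 3 were well below the other untreated ones, yet above every 4 h library. The fold change at 4 h was -1.47 ± 0.22 and -1.65 ± 0.22 (adjusted p = 8.98e-06 and 2.26e-06). At 8 h it was -0.69 ± 0.21 in labelled knock-out cells, where the call was lost without library 15 (adjusted p = 0.0681), and -0.29 ± 0.21 in wild-type cells, not called.

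Wipi1 binds phosphatidylinositol 3-phosphate on forming autophagosomes. Wipi1 in labelled knock-out cells was at 15.9, 16.2 and 16.3 CPM at 0 h, then 7.16, 10.1 and 6.84 at 4 h, then 8.82, 8.23 and 8.43 at 8 h, then 13.3 and 13.5 at 24 h. Wipi1 in wild-type cells was at 16.3, 15.4 and 12.7 CPM at 0 h, then 6.09, 6.0001 and 9.35 at 4 h, then 8.85, 8.67 and 6.295 at 8 h, then 11.5, 10.9 and 16.3 at 24 h. It was low at both 4 and 8 h, with all of those libraries under the untreated ones. Log2 fold changes were -1.01 ± 0.19 and -0.92 ± 0.19 in labelled knock-out cells (adjusted p = 0.000171 and 0.000423) and -1.05 ± 0.19 and -0.90 ± 0.19 in wild-type cells (adjusted p = 0.000108 and 0.000481). Wipi2, which recruits Atg16l1, was lower at 4 h (-0.58 ± 0.13 and -0.61 ± 0.13) but higher at 8 h (0.38 ± 0.12 and 0.61 ± 0.13) and 24 h (0.50 ± 0.14 and 0.80 ± 0.13). In labelled knock-out cells those later calls were lost without library 14 at 8 h and library 23 at 24 h (adjusted p = 0.097 and 0.0963).

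Atg9a encodes the scramblase whose vesicles seed the membrane. Atg9a in labelled knock-out cells was at 59.9, 51.2 and 58.7 CPM at 0 h, then 78.1, 74.02 and 87.2 at 4 h, then 136, 115 and 136 at 8 h, then 73.5 and 93.1 at 24 h. Atg9a in wild-type cells was at 68.3, 67.4 and 71.8 CPM at 0 h, then 95.4, 86.3 and 65.96 at 4 h, then 98.9, 113 and 107 at 8 h, then 81.4, 75.5 and 110.1 at 24 h. Values were highest at 8 h in labelled knock-out cells, and in wild-type cells the 8 h libraries also lay above the untreated ones. It rose at 4 h in labelled knock-out cells (0.49 ± 0.15, adjusted p = 0.00645), with 0.26 ± 0.15 in wild-type cells, not called. Its log2 fold change at 8 h was 1.18 ± 0.15 in labelled knock-out and 0.62 ± 0.15 in wild-type cells (adjusted p = 1.53e-06 and 0.00111). At 24 h it was 0.56 ± 0.16 and 0.36 ± 0.15, calls lost without library 23 in labelled knock-out cells (adjusted p = 0.168) and without library 1, 2, 3 or 12 in wild-type cells (up to 0.317, without 12). A predicted gene on the same strand, Gm29253, shares 31.8% of its exonic length, and a read pair over both counts for each. Gm29253 had 72.7% as many counts as Atg9a.

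**Figure D2:**
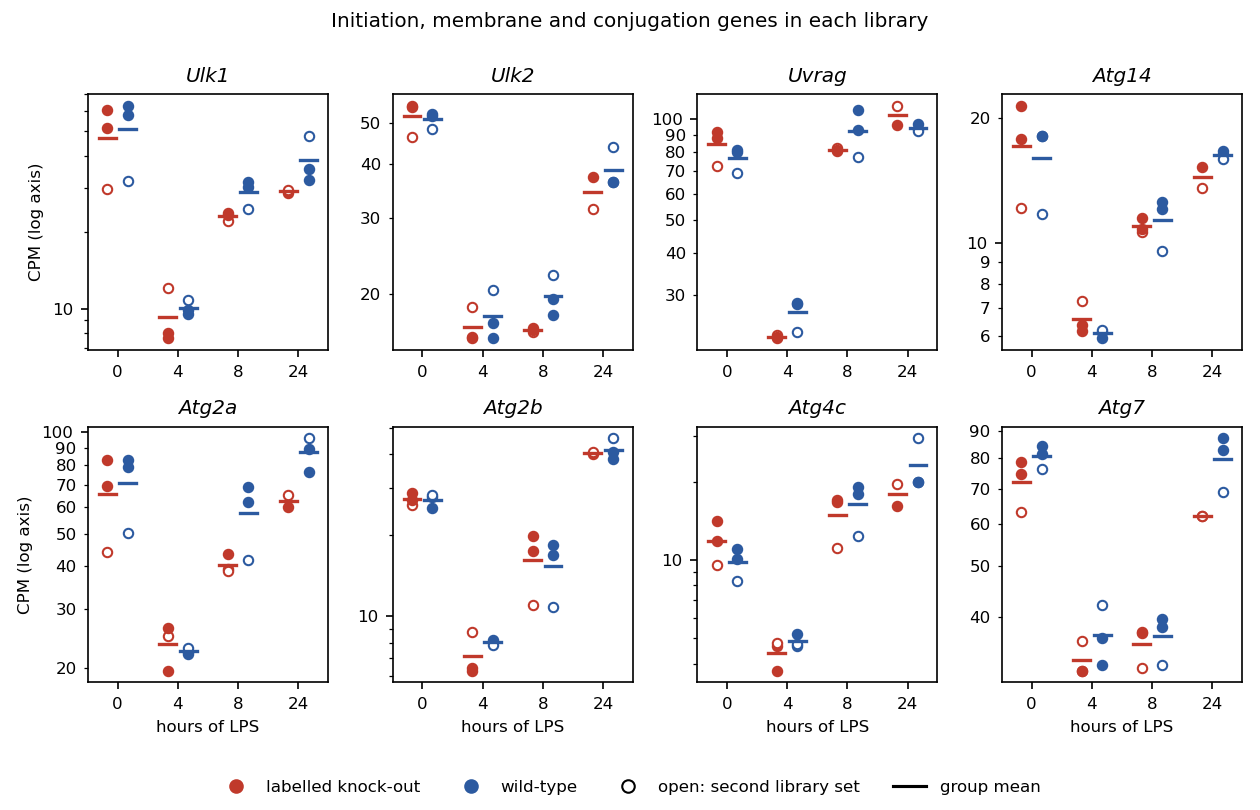
Level (CPM, log axis) of Ulk1, Ulk2, Uvrag, Atg14, Atg2a, Atg2b, Atg4c and Atg7 in each of the 23 libraries by hours of LPS, labelled knock-out left of wild-type at each time, with bars at group means and open circles for the second library set. Group means are lowest at 4 h, or at 4 and 8 h for Ulk2 and Atg7, and stand higher again at 24 h.

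The plot of these initiation, membrane and conjugation genes by library shows that the fall at 4 h held in both library sets. Open circles sit low among the untreated libraries for Ulk1, Atg14 and Atg2a, and among the 8 h libraries for Atg2b and Atg4c.

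The 10 conjugation enzymes split at 4 h, when 5 fell and 3 rose in labelled knock-out cells and 3 fell and 4 rose in wild-type cells. Of all genes, 34.1% and 28% were called lower and higher at 4 h in labelled knock-out cells and 34.8% and 28.2% in wild-type cells. At 8 h 6 were higher and 1 (Atg7) lower in labelled knock-out cells and 8 higher and 1 (Atg7) lower in wild-type cells, where 28.3% and 30.3% of all genes were higher. At 24 h 7 were higher and none lower in labelled knock-out cells and 8 higher and none lower in wild-type cells, where 22.6% and 27.8% of all genes were higher and 20.8% and 27.3% lower. Atg7 is the E1-like enzyme that activates both Atg12 and the Atg8 proteins. Atg7 in labelled knock-out cells was at 74.7, 63.3 and 78.6 CPM at 0 h, then 31.7, 36.2 and 31.7 at 4 h, then 37.3, 32.04 and 37.6 at 8 h, then 62.1 and 62.2 at 24 h. Atg7 in wild-type cells was at 81.5, 84.3 and 76.2 CPM at 0 h, then 36.5, 32.6 and 42.3 at 4 h, then 38.3, 39.7 and 32.6 at 8 h, then 87.2, 82.8 and 68.9 at 24 h. Libraries at 4 and 8 h were all far below the untreated ones, and the 24 h libraries of wild-type cells lay around the untreated values. Log2 fold changes were -1.12 ± 0.12 and -1.02 ± 0.12 at 4 and 8 h in labelled knock-out cells (adjusted p = 1.7e-07 and 7.81e-07) and -1.12 ± 0.12 and -1.13 ± 0.12 in wild-type cells (adjusted p = 1.61e-07 and 1.77e-07).

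The 4 Atg4 proteases trim Atg8 proteins before conjugation and release them afterwards, and their transcripts did not move together. Atg4c in labelled knock-out cells was at 11.8, 9.601 and 14.1 CPM at 0 h, then 4.66, 4.79 and 3.76 at 4 h, then 16.7, 11.2 and 17.03 at 8 h, then 16.1 and 19.6 at 24 h. Atg4c in wild-type cells was at 10.1, 10.98 and 8.34 CPM at 0 h, then 5.19, 4.67 and 4.74 at 4 h, then 19.02, 17.9 and 12.3 at 8 h, then 19.9, 19.98 and 29.4 at 24 h. It was lowest at 4 h and, in wild-type cells, highest at 24 h, with library 12 above all others. At 4 h its log2 fold change was -1.43 ± 0.21 in labelled knock-out and -1.01 ± 0.21 in wild-type cells (adjusted p = 9.7e-06 and 0.000349). The 24 h value was 0.59 ± 0.22, called only while libraries 13, 14 and 23 were all kept (adjusted p up to 0.271, without 23), and 1.23 ± 0.21 in wild-type cells (adjusted p = 5.37e-05).

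Atg4a in labelled knock-out cells was at 8.97, 9.798 and 8.53 CPM at 0 h, then 10.3, 12.3 and 9.89 at 4 h, then 18.4, 15.5 and 15.96 at 8 h, then 12.6 and 16.5 at 24 h. Atg4a in wild-type cells was at 7.88, 8.34 and 8.99 CPM at 0 h, then 10.6, 11.5 and 11.8 at 4 h, then 14.99, 17.96 and 19.2 at 8 h, then 13.005, 14.1 and 19.5 at 24 h. Its 8 h libraries all exceeded the untreated ones. At 8 h Atg4a was up by 0.87 ± 0.15 in labelled knock-out and 1.05 ± 0.15 in wild-type cells, log2 (adjusted p = 6.52e-05 and 7.31e-06). Its 24 h values were 0.68 ± 0.17 and 0.89 ± 0.15, and in labelled knock-out cells the call was lost without library 23 (adjusted p = 0.0921). The call at 4 h in wild-type cells, 0.43 ± 0.15, was lost without library 1 or 6 (adjusted p = 0.0671 and 0.0536). Of the 100-base stretches of its transcripts, 34.7% occur in another gene (Atg4a-ps), and a read that aligns to more than 1 place adds no count, so its level is uncertain. Atg4b and Atg4d had no fall at any time. Atg4d was higher at 4 h (0.65 ± 0.091 and 0.44 ± 0.091) and at 24 h (0.78 ± 0.1 and 0.56 ± 0.091), though Kri1 on the opposite strand overlaps 19.3% of its exonic length, with 78.1% as many counts. Atg4b was not called at 4 h and reached 0.52 ± 0.085 and 0.37 ± 0.076 at 24 h.

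Atg12 is the ubiquitin-like protein that is joined to Atg5. Atg12 in labelled knock-out cells was at 39.8, 29.6 and 41.7 CPM at 0 h, then 24.8, 21.5 and 24.98 at 4 h, then 53.9, 53.2 and 55.2 at 8 h, then 48.3 and 53.1 at 24 h. Atg12 in wild-type cells was at 36.9, 37.8 and 26.1 CPM at 0 h, then 25.05, 25.2 and 19.4 at 4 h, then 82.03, 71.9 and 60.6 at 8 h, then 58.8, 54.7 and 67.7 at 24 h. Its 4 h libraries were under the untreated ones and its 8 h libraries above them in both genotypes, and the wild-type 8 h libraries were all above those of labelled knock-out cells. The log2 fold change was -0.64 ± 0.16 at 4 h and 0.55 ± 0.16 at 8 h in labelled knock-out cells (adjusted p = 0.00159 and 0.00556) and -0.53 ± 0.16 and 1.09 ± 0.16 in wild-type cells (adjusted p = 0.00628 and 7.64e-06). At 24 h it was 0.45 ± 0.17 and 0.85 ± 0.16, and in labelled knock-out cells that call was lost without library 14, 22 or 23 (adjusted p up to 0.218, without 23).

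Its partners differed. Atg16l1, which places the Atg12-Atg5 conjugate on the membrane, rose at 4 h (0.77 ± 0.093 and 0.64 ± 0.092, adjusted p = 7.04e-07 and 6.58e-06) and at 8 h (0.76 ± 0.093 and 0.54 ± 0.092). At 24 h against 4 h it was lower, at -0.29 ± 0.10 in labelled knock-out cells, a call lost without library 16, 18, 22 or 23 (adjusted p up to 0.108, without 18), and -0.43 ± 0.092 in wild-type cells (adjusted p = 0.000526). Atg3, the E2-like enzyme for Atg8 proteins, rose at 4 h (0.33 ± 0.079 and 0.46 ± 0.079) and 8 h (0.58 ± 0.079 and 0.79 ± 0.08). At 24 h it was 0.32 ± 0.088 in labelled knock-out cells, not called without library 22 (adjusted p = 0.0665), and 0.51 ± 0.079 in wild-type cells. Atg5 was lower at 4 h in labelled knock-out cells (-0.52 ± 0.14, adjusted p = 0.00403), with -0.32 ± 0.14 in wild-type cells, not called. Its higher call at 24 h in wild-type cells (0.36 ± 0.14) was lost without library 2, 3, 11 or 12 (adjusted p up to 0.142, without 3). Atg10, the E2-like enzyme for Atg12 and the lowest of the 10 per library in CPM, was -0.54 ± 0.14 at 4 h in labelled knock-out cells (adjusted p = 0.00195). In wild-type cells its higher calls at 8 and 24 h (0.36 ± 0.13 and 0.40 ± 0.13) were each lost without 1 library (adjusted p up to 0.122, without 7, and 0.0608, without 3).

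Promoter windows from 250 bases before to 50 bases after the start were read from RefSeq (build GRCm38.p6) for 29 of the 35 genes, in 33 windows. The E-box CACGTG, the core of the sites that TFEB and its relatives are known to bind, was searched there. It reads the same on both strands. It lay in windows of 4 of the 29 genes (13.8%), Atg3, Atg5, Atg7 and Atg14, against 8.09% of 27025 genes with such windows. The stretches that hold it are shown, 5′ to 3′ along the gene's strand with the motif in capitals, because 3 of the 4 genes are conjugation enzymes. Atg3 lies at chr16:45158699-45158798 on the plus strand, Atg5 at chr10:44268239-44268338 (plus), Atg7 at chr6:114670916-114671015 (plus) and Atg14 at chr14:47568430-47568459 (minus).
Atg3, 130 to 31 bases before the start: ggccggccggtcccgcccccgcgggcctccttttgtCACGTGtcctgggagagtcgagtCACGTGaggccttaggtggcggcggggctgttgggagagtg
Atg5, 100 to 1 bases before the start: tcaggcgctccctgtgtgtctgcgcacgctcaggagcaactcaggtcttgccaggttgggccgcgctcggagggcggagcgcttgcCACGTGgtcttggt
Atg7, 180 to 81 bases before the start: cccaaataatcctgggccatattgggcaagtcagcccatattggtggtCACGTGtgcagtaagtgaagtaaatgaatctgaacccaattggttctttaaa
Atg14, from 25 bases before the start to 5 after: tgcacctggataaaaacaaaatccCACGTG
Atg3 has the motif in duplicate, at -94 to -89 and at -71 to -66. The RefSeq starts of Atg7 and Atg14 used here lie inside the gene as counted, not at its first base. The search for motifs used the whole window of each gene. These 4 genes did not share a response at 4 h, when Atg7 and Atg14 fell in both genotypes and Atg3 rose. A match is letters in a window and no measurement of binding.

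Transcripts of the 5 Atg8 proteins, which are conjugated to the membrane lipid phosphatidylethanolamine, were dominated by Gabarap. Per exonic length, Gabarap averaged 259 ± 35.1 RPKM (CPM per kilobase of exonic length, ± SD) in untreated labelled knock-out and 247 ± 37.7 in untreated wild-type cells. It was not called against untreated cells at any time, with log2 fold changes between -0.16 and 0.19. Of the summed RPKM of the 5 genes, Gabarap made up 84.1% ± 0.286 (SD) after 4 h of LPS, against 76.7% ± 2.62 at 0 h, in labelled knock-out cells. In wild-type cells its share was 83.5% ± 0.249 after 4 h, against 77.7% ± 3.103 at 0 h. Gabarapl1 made up the next largest share, 5.85% ± 0.735 after 4 h against 12.8% ± 1.95 at 0 h in labelled knock-out cells, and 6.06% ± 0.448 against 11.7% ± 1.97 in wild-type cells. The exonic length merges all isoforms of a gene, so a gene with long rarely used exons is given too low an RPKM.

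Gabarapl1 and Map1lc3b were the 2 members of the family that fell. Gabarapl1 in labelled knock-out cells was at 95.1, 59.1 and 112 CPM at 0 h, then 32.4, 35.8 and 40.4 at 4 h, then 39.1, 30.6 and 42.7 at 8 h, then 54.7 and 64.9 at 24 h. Gabarapl1 in wild-type cells was at 92.03, 90.4 and 47.4 CPM at 0 h, then 33.2, 36.2 and 27.7 at 4 h, then 54.4, 56.3 and 30.98 at 8 h, then 62.3, 61.4 and 56.8 at 24 h. The untreated second-set libraries 14 and 3 stood near or under the 24 h level, and even they lay above every 4 h library. The fold change at 4 h was -1.29 ± 0.26 in labelled knock-out and -1.24 ± 0.26 in wild-type cells, log2 (adjusted p = 0.000243 and 0.00035). At 8 h it was -1.24 ± 0.26 and -0.70 ± 0.25, and the wild-type call was lost without library 1, 2 or 9 (adjusted p = 0.0985, 0.0911 and 0.123). The gene 1700101I11Rik on the opposite strand overlaps 28.3% of its exonic length, with 23.2% as many counts.

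Map1lc3b encodes LC3B, the protein most used to count autophagosomes. Map1lc3b in labelled knock-out cells was at 143, 88.2 and 159 CPM at 0 h, then 66.7, 59.03 and 75.7 at 4 h, then 76.2, 63.9 and 76.5 at 8 h, then 84.5 and 75.6 at 24 h. Map1lc3b in wild-type cells was at 146, 152 and 78.2 CPM at 0 h, then 65.3, 65.4 and 55.7 at 4 h, then 83.98, 86.3 and 62.1 at 8 h, then 89.8, 85.9 and 83.9 at 24 h. It fell at 4 h and, unlike most of the machinery, was not called higher at 24 h than at 4 h. The log2 fold change at 4 h was -0.96 ± 0.22 and -1.01 ± 0.22 (adjusted p = 0.000883 and 0.000508), and 24 h against 4 h gave 0.25 ± 0.24 and 0.48 ± 0.22 (adjusted p = 0.386 and 0.0638). At 8 h it was -0.85 ± 0.22 and -0.70 ± 0.22, the wild-type call being lost without library 2 or 9 (adjusted p = 0.0562 and 0.0516). Its lower calls at 24 h (-0.70 ± 0.25 and -0.54 ± 0.22) were lost without library 13, 15, 22 or 23 in labelled knock-out cells (adjusted p up to 0.174, without 23) and without any of 12 libraries in wild-type cells (up to 0.196, without 2). Gabarapl2 rose by small amounts, 0.33 ± 0.088 and 0.40 ± 0.088 at 8 h (adjusted p = 0.00337 and 0.000608). Its calls at 4 h (0.25 ± 0.088 and 0.23 ± 0.088) were lost without library 14, 16 or 17 and without library 3, 4 or 6 (adjusted p up to 0.0762, without 16, and 0.108, without 3). Map1lc3a was not called by LPS in either genotype. Gabarap was higher at 24 h than at 4 h in wild-type cells (0.35 ± 0.14), a call lost without library 5, 6, 10 or 11 (adjusted p up to 0.138, without 6), and Gabarapl1 in labelled knock-out cells (0.72 ± 0.28), a call lost without library 16, 17, 22 or 23 (up to 0.181, without 23).

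**Figure D3:**
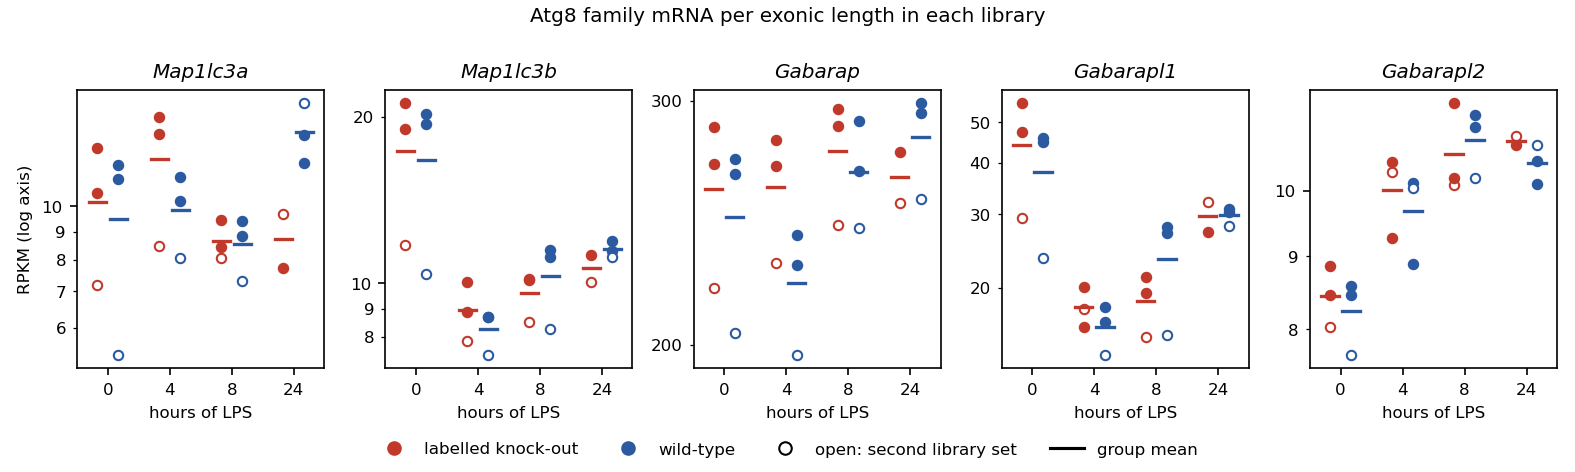
Level per exonic length (RPKM, log axis, a different range in each panel) of the 5 Atg8 genes in each library by hours of LPS, labelled knock-out left of wild-type, with bars at group means and open circles for the second library set. Gabarap stays between 196 and 299 RPKM in all 23 libraries. Group means of Map1lc3b and Gabarapl1 are lower at 4, 8 and 24 h than at 0 h, and the 24 h libraries of Gabarapl1 overlap the untreated ones in both genotypes.

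In the plot of the Atg8 family by library, the second-set libraries are the lowest of the untreated libraries for all 5 genes, in both genotypes.

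The cargo receptors gave the largest rises of the machinery. Sqstm1, Optn and Tax1bp1 rose at 4 and 8 h in both genotypes, while Calcoco1 fell at both times and Nbr1 fell at 4 h. Sqstm1 (p62) binds ubiquitin and LC3, forms condensates of ubiquitinated cargo and also scaffolds NF-kB and NRF2 signalling. Sqstm1 in labelled knock-out cells was at 589.9, 455 and 637 CPM at 0 h, then 1857, 2865 and 1972 at 4 h, then 1518, 1476 and 1565 at 8 h, then 1154 and 1561 at 24 h. Sqstm1 in wild-type cells was at 540.4, 549 and 509 CPM at 0 h, then 1603, 1622 and 2524 at 4 h, then 2518, 2424 and 1751 at 8 h, then 1547, 1429 and 2538 at 24 h. Every LPS library exceeded every untreated library, and the second-set libraries were the highest of their groups at 4 h (17 and 6) and 24 h (23 and 12). The log2 fold changes at 4, 8 and 24 h were 1.99 ± 0.24, 1.44 ± 0.24 and 1.28 ± 0.26 in labelled knock-out cells (adjusted p = 8.32e-07, 4.01e-05 and 0.000572). Wild-type cells gave 1.85 ± 0.24, 2.07 ± 0.24 and 1.79 ± 0.24 (adjusted p = 1.97e-06, 6.17e-07 and 5.36e-06). At 24 h against 4 h it was lower in labelled knock-out cells (-0.72 ± 0.27), a call lost without library 17 or 22 (adjusted p = 0.129 and 0.232), and stood at -0.06 ± 0.23 in wild-type cells, not called. Per exonic length it averaged 665 ± 164 RPKM at 4 h in labelled knock-out and 571 ± 157 in wild-type cells, the top of the 35 genes, and second to Gabarap in untreated cells at 167 ± 28.1 and 159 ± 6.24. Mrnip on the opposite strand overlaps 17.3% of its exonic length, with 0.136% as many counts.

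Tax1bp1 encodes a receptor that also works with A20 in restraining NF-kB signalling. Tax1bp1 in labelled knock-out cells was at 133, 119 and 141 CPM at 0 h, then 688, 324 and 636 at 4 h, then 564, 569 and 583 at 8 h, then 153 and 193 at 24 h. Tax1bp1 in wild-type cells was at 115, 110.1 and 95.96 CPM at 0 h, then 561, 657 and 330.5 at 4 h, then 728, 648 and 707 at 8 h, then 202, 199 and 311 at 24 h. Values at 4 and 8 h were all well above the untreated ones, and at 4 h the second-set libraries 17 and 6 were the lowest of their groups. Its log2 fold changes were 2.07 ± 0.26, 2.13 ± 0.26 and 0.40 ± 0.27 at 4, 8 and 24 h in labelled knock-out cells (adjusted p = 1.11e-06, 1.11e-06 and 0.251). Wild-type cells gave 2.27 ± 0.26, 2.698 ± 0.26 and 1.15 ± 0.25 (adjusted p = 3.62e-07, 6.17e-08 and 0.000741).

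Optn (optineurin), a receptor for mitochondria and bacteria that TBK1 phosphorylates, had the widest range of the 35 genes, with 18.7 times as much in its highest as in its lowest group. Optn in labelled knock-out cells was at 11.1, 9.69 and 13.4 CPM at 0 h, then 72.2, 43.7 and 68.3 at 4 h, then 22.1, 28.4 and 21.8 at 8 h, then 3.63 and 2.93 at 24 h. Optn in wild-type cells was at 9.92, 10.1 and 7.41 CPM at 0 h, then 48.2, 61.4 and 38.2 at 4 h, then 28.3, 26.5 and 39.4 at 8 h, then 4.32, 4.58 and 6.07 at 24 h. Group means were highest at 4 h and next at 8 h, where wild-type libraries of both times overlapped, and at 24 h every library lay below every untreated one in its genotype. In labelled knock-out cells the log2 fold change was 2.43 ± 0.23 at 4 h, 1.08 ± 0.22 at 8 h and -1.79 ± 0.27 at 24 h (adjusted p = 3.3e-08, 0.000368 and 3.34e-05). Wild-type cells gave 2.43 ± 0.23, 1.78 ± 0.23 and -0.87 ± 0.23 (adjusted p = 3.32e-08, 1.6e-06 and 0.00314), and 24 h against 4 h was -4.22 ± 0.30 in labelled knock-out and -3.304 ± 0.24 in wild-type cells.

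Calcoco1, a receptor for turnover of endoplasmic reticulum and Golgi membranes, fell. Calcoco1 in labelled knock-out cells was at 38.03, 20.1 and 43.3 CPM at 0 h, then 16.1, 13.9 and 17.9 at 4 h, then 9.96, 12.7 and 10.4 at 8 h, then 18.7 and 19.8 at 24 h. Calcoco1 in wild-type cells was at 35.8, 36.7 and 16.3 CPM at 0 h, then 13.2, 13.6 and 12.2 at 4 h, then 10.7, 10.3 and 12.2 at 8 h, then 21.2, 21.05 and 25.7 at 24 h. Each 4 h and 8 h library lay under the untreated ones of its genotype, although libraries 14 and 3 were the lowest untreated ones by a wide margin. Its log2 fold change was -1.09 ± 0.26 at 4 h and -1.62 ± 0.26 at 8 h in labelled knock-out cells (adjusted p = 0.00123 and 3.23e-05) and -1.19 ± 0.26 and -1.42 ± 0.26 in wild-type cells (adjusted p = 0.000559 and 0.000108). The lower call at 24 h in labelled knock-out cells (-0.81 ± 0.29) was lost without library 13, 15, 22 or 23 (adjusted p up to 0.136, without 22), and the higher call of 24 h against 4 h in wild-type cells (0.80 ± 0.26) without library 12 (adjusted p = 0.054). Nbr1, a relative of Sqstm1 that seeds its condensates, was lower at 4 h, at 24.5, 29.4 and 23.2 CPM in labelled knock-out cells, against 76.3, 50.4 and 86.01 CPM in untreated ones, and at 22.8, 24.4 and 29.4 CPM in wild-type cells, against 62.97, 63.6 and 43.7 CPM in untreated ones. The fold changes were -1.46 ± 0.18 and -1.15 ± 0.17, log2 (adjusted p = 7.69e-07 and 1.26e-05). By 24 h Nbr1 was above untreated cells, at 0.65 ± 0.19 and 1.26 ± 0.17, a call that labelled knock-out cells lost without library 23 (adjusted p = 0.0735).

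**Figure D4:**
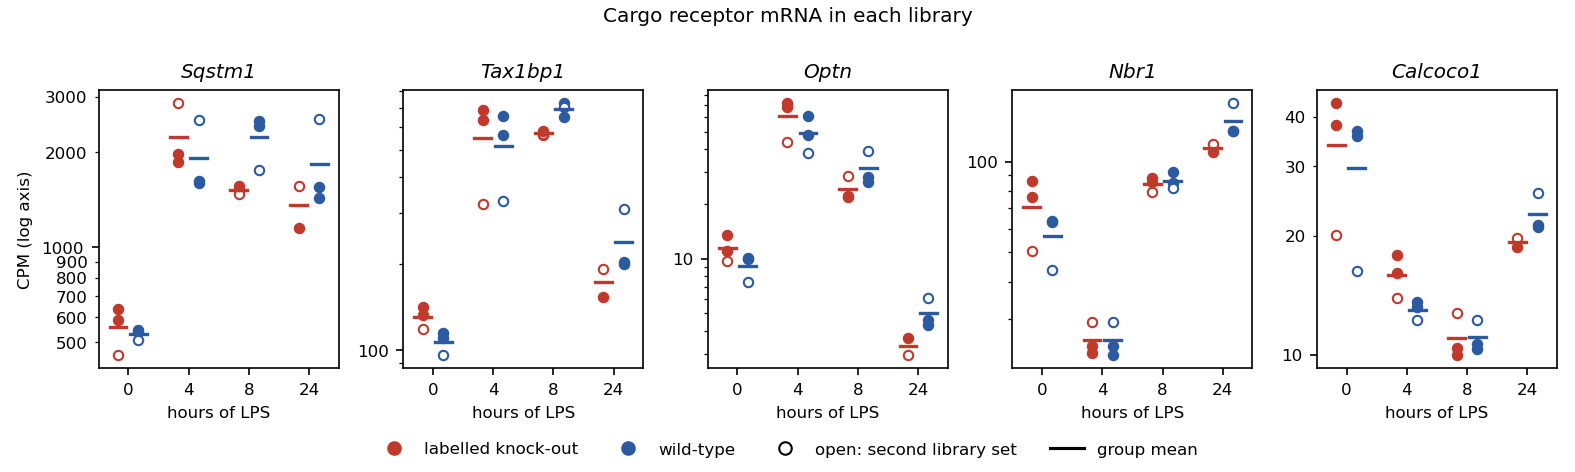
Level (CPM, log axis, a different range in each panel) of the 5 cargo receptors in each library by hours of LPS, labelled knock-out left of wild-type, with bars at group means and open circles for the second library set. Sqstm1, Tax1bp1 and Optn are high at 4 and 8 h, Optn falls below untreated cells at 24 h, and Nbr1 is lowest at 4 h.

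The plot of the cargo receptors by library sets these courses side by side. Open circles at 4 h lie above the filled ones for Sqstm1 and below them for Tax1bp1 and Optn, in both genotypes.

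The consensus for NF-kB was searched on both strands of the same promoter windows. It lay in windows of 2 of the 29 genes (6.9%), against 5.14% of all genes, and those 2 are the receptors Sqstm1 and Tax1bp1. The 2 shares are close, and the windows are shown only because these 2 receptors rose at 4 h, with the matched letters in capitals. A match is letters in a window and no measurement of binding, and its part in the rises was not tested. The Sqstm1 stretch is chr11:50210821-50211070 on the minus strand. Tax1bp1 has 2 RefSeq starts, and its match is after the downstream one, in chr6:52714185-52714214 on the plus strand.
Sqstm1, 250 to 1 bases before the start: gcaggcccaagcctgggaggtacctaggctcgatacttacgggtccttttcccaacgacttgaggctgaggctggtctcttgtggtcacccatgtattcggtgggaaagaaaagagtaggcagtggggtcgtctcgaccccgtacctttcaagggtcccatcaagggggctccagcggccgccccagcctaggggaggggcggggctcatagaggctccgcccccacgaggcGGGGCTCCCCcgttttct
Tax1bp1, 21 to 50 bases after the downstream start: ctggaggaagaggcGGGGACTCCCtgtgtc
The Sqstm1 match lies at -18 to -9 and the Tax1bp1 match at +35 to +44, where the strand opposite to the gene matches. That downstream start lies inside the gene as counted, and the bases after it were not found in a GENCODE transcript of Tax1bp1. Optn, which also rose at 4 h, had no match in its window. The NRF2-type element TGACNNNGC was found on either strand in windows of Atg13, Map1lc3b, Tax1bp1 and Ulk2 (4 genes, 13.8%, against 3781 of 27025 genes in all), and the STAT-type element TTCNNNGAA in those of Gabarap, Gabarapl1, Nbr1 and Wipi1 (13.8%, against 9.55%).

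Genes around the core machinery were read from 4 further lists. Their counts at 4 h stand against 34.1% of all genes lower and 28% higher in labelled knock-out cells and 34.8% and 28.2% in wild-type cells. Of 7 transcription factors of autophagy genes, 4 (57.1%) fell and 1 rose at 4 h in labelled knock-out and 5 (71.4%) fell and 1 rose in wild-type cells. Tfeb, the regulator of lysosome and autophagy genes, stood near 1 CPM, at 1.27, 1.11 and 1.63 CPM at 4 h in labelled knock-out cells, against 59.5, 43.04 and 65.4 CPM in untreated ones. In wild-type cells Tfeb was at 1.49, 1.03 and 1.38 CPM at 4 h, against 64.3, 64.03 and 43.8 CPM in untreated ones. No library of one time came near those of the other, and the log2 fold changes were -5.39 ± 0.26 and -5.46 ± 0.26 (adjusted p = 1.54e-11 and 1.32e-11). By 24 h Tfeb was at -1.17 ± 0.24 and -1.12 ± 0.21 relative to untreated cells. Its relative Mitf rose at 4 h (1.61 ± 0.20 and 1.81 ± 0.20), while the forkhead factors Foxo3 (-3.24 ± 0.23 and -2.81 ± 0.23) and Foxo4 (-2.04 ± 0.23 and -2.07 ± 0.23) fell (adjusted p at most 1.31e-06 for these 3 genes at 4 h).

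Of 14 genes of autophagosome-lysosome fusion, 10 (71.4%) fell and 2 rose at 4 h in labelled knock-out and 9 (64.3%) fell and 2 rose in wild-type cells. Plekhm1, an adaptor between RAB7 and the tethering complex, was at 23.1, 24.1 and 24.98 CPM at 4 h in labelled knock-out cells, against 247, 177 and 226 CPM untreated, and fell by similar amounts in wild-type cells (log2 fold change -3.17 ± 0.18 and -3.04 ± 0.18). Vps18, a core subunit of that tethering complex, moved by -2.06 ± 0.18 and -2.296 ± 0.18, and Tecpr1, a tether on lysosomes, by -2.98 ± 0.37 and -2.62 ± 0.36 at 8 h. The SNARE Ykt6 rose at 8 h (1.06 ± 0.14 and 1.23 ± 0.14). Of 16 other receptors and mitophagy genes, 9 (56.2%) fell and 2 rose at 4 h in labelled knock-out and 11 (68.8%) fell and 2 rose in wild-type cells. Pink1, the kinase that marks damaged mitochondria, was at -2.598 ± 0.36 and -2.24 ± 0.36 at 8 h, and Ncoa4, the receptor for ferritin, at -1.92 ± 0.23 and -1.81 ± 0.23. Bnip3, a hypoxia-responsive mitophagy receptor, was higher at 24 h (2.28 ± 0.59 and 3.16 ± 0.58), with 65.3, 61.2 and 246 CPM in wild-type cells, against 14.7, 15.6 and 11.3 CPM untreated. Its wild-type value was 2.18 without library 12, the highest library. Of 11 accessory factors, 5 (45.5%) fell and 4 (36.4%) rose in labelled knock-out and 6 (54.5%) fell and 4 rose in wild-type cells at 4 h, nearer to those shares than the other lists. Atg9b, the paralogue of Atg9a, was at 0.264 and 0.234 CPM at 24 h in labelled knock-out cells, against 5.22, 8.65 and 5.22 CPM untreated, and at 0.209, 0.179 and 0.0991 CPM in wild-type cells, against 9.996, 8.16 and 12.6 CPM untreated. The log2 fold changes were -4.66 ± 0.41 and -5.94 ± 0.37 (adjusted p = 8.72e-08 and 6.32e-10). Atg9b at 24 h was near the level that a gene with no count could hold, so the sizes of its falls are uncertain. Vmp1, a scramblase of the endoplasmic reticulum, was at 1.74 ± 0.11 and 1.74 ± 0.10 (log2) at 24 h. Atg16l2 stood at -1.49 ± 0.18 and -1.62 ± 0.16 at 24 h, and Wdr45 (WIPI4) at -1.37 ± 0.23 and -1.52 ± 0.23 at 8 h.

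Between genotypes, no gene of the machinery was called at a single time by edgeR's test on group means. That test did not call Selenow itself at 0, 4, 8 or 24 h either (adjusted p = 0.27, 0.735, 0.288 and 0.839). It called Selenow only on average (-0.70 ± 0.19, log2, adjusted p = 0.0306). A gene not called at a single time may therefore still differ between genotypes. None of 35 was called at 0, 4, 8 or 24 h, where 1.52%, 1.24%, 2.2% and 1.19% of all genes were called. At an unadjusted p under 0.05 there were 1, 0, 5 and 4 genes. The shares of all genes given here are of adjusted calls and are no background for these looser counts. DESeq2 called 1 gene (Becn1) at 0 h and 0 at the other times, and limma-voom 0 at each. Averaged over the 4 times, Becn1 alone was called, higher in labelled knock-out cells by 0.16 ± 0.04 (log2, adjusted p = 0.0199), where 3.13% of all genes were called higher and 3.14% lower. Its libraries, given above, did not overlap at 0, 8 and 24 h, when all labelled knock-out values were above the wild-type ones, and overlapped at 4 h. That call was lost without library 23 (adjusted p = 0.0655), without the 4 libraries 13, 16, 19 and 22 (adjusted p = 0.239) and with no filter on low counts. Cntd1 overlaps 43.9% of the exonic length of Becn1, with 49.5% as many counts. The part of these shared reads in the difference was not tested. DESeq2 called 2 of the 35 on average (Becn1 higher, Atg7 lower) and limma-voom 1, and 2 were called by edgeR without library 12 or 20. Without libraries 13, 16, 19 and 22, 0 of 35 were called at any time or on average, where 0.604%, 0.77%, 0.957%, 0.497% and 3.16% of all genes were. For the difference of the LPS responses between genotypes, 0 of 35 were called at 4, 8 and 24 h (0.0442%, 0.0442% and 0% of all genes), with 2, 4 and 4 at an unadjusted p under 0.05 and 0 by DESeq2 and by limma-voom. Those shares, too, are of adjusted calls.

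The comparison of genotypes changed when the library sets were taken into account. A fit with a term for the set at each time called 6, 2, 10 and 13 of the 35 genes at 0, 4, 8 and 24 h and 10 on average. The sets were found in these same data, so these p-values may be too small. At 0 and 4 h the shares of all genes called were 13.6% and 4.66%, and on average 23.9%, close to 17.1%, 5.71% and 28.6% of the 35. At the late times lower calls outnumbered higher ones among the 35. At 8 h 8 genes were lower and 2 higher in labelled knock-out cells (8.28% and 7.93% of all genes), and at 24 h 13 were lower and 0 higher (9.44% and 10.1%). The 13 were Ulk1, Rb1cc1, Atg13, Atg2a, Atg4c, Atg7, Atg12, Map1lc3a and all 5 cargo receptors. The labelled knock-out arm at 24 h is library 22 alone in the first set and library 23 alone in the second. Their Selenow stood at 102% and 63.9% of the wild-type mean, so the 24 h calls rest on few libraries, and library 22 goes against its label.

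Sqstm1 shows the pattern. In the first set at 8 h it was at 1518 and 1565 CPM in labelled knock-out cells, against 2518 and 2424 CPM in wild-type cells, and in the second set at 1476 CPM in the labelled knock-out library, against 1751 CPM in the wild-type one. Library 19, whose Selenow level went against its label, was as low as library 21. At 24 h Sqstm1 was at 1154 CPM in the first-set labelled knock-out library, against 1547 and 1429 CPM in wild-type cells, and in the second set at 1561 against 2538 CPM. Labelled knock-out values were thus lower within each set at both times. At 24 h the labelled knock-out side is library 22 alone in the first set and library 23 alone in the second, here and for the genes below. With the set term the difference was -0.54 at 8 h and -0.51 at 24 h (log2, adjusted p = 0.000971 and 0.00358), against -0.55 ± 0.23 and -0.44 ± 0.26 in the fit without it (adjusted p = 0.288 and 0.541). Tax1bp1 was -0.28 and -0.52 with the set term (adjusted p = 0.0199 and 0.000753). Within the sets it was at -0.39 in the first and -0.69 in the second at 24 h. Optn gave -0.37 and -0.61 (adjusted p = 0.0283 and 0.0104). Map1lc3a, at 9.12 CPM in the first set and 11.5 in the second in labelled knock-out cells at 24 h, against 15.95 and 14.2 and, in the second set, 18.3 CPM in wild-type cells, had the largest difference at that time (-0.70, adjusted p = 0.000884).

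Across the 35 genes, labelled knock-out levels were lower in both library sets for 8, 5, 17 and 22 genes at 0, 4, 8 and 24 h, and higher in both for 23, 19, 9 and 6. Of all genes tested, 35.4%, 26.9%, 33.3% and 34.3% were lower in both sets and 34.2%, 32%, 33.9% and 34.5% higher. The 35 genes gave 22.9%, 14.3%, 48.6% and 62.9% lower and 65.7%, 54.3%, 25.7% and 17.1% higher. These counts take each gene by itself and share the same 23 libraries. The difference of LPS responses with the set term was called for 0, 8 and 11 genes at 4, 8 and 24 h. Only 0.874% of all genes were called at 4 h. At 8 h 7 were lower and 1 (Atg9a) higher (5.87% and 6.86% of all genes), and at 24 h 10 were lower and 1 (Atg16l1) higher (6.95% and 9.41%). Rb1cc1 (-0.77 and -0.85), Sqstm1 (-0.60 and -0.57), Optn (-0.70 and -0.94), Tax1bp1 (-0.57 and -0.81), Nbr1 (-0.34 and -0.63) and Atg12 (-0.54 and -0.43) were called lower at both times, that is, their log2 change with LPS was lower in labelled knock-out cells. Both times share the untreated libraries, so a high untreated level enters both. At 0 h the labelled knock-out level was already higher in both sets for Rb1cc1 (log2 ratio 0.36 in the first and 0.46 in the second), Optn (0.29 and 0.39), Tax1bp1 (0.28 and 0.31), Nbr1 (0.36 and 0.21) and Atg12 (0.13 and 0.19). Sqstm1 was higher in the first set only (0.17 and -0.16). Part of each lower change thus lies at 0 h where that level was higher.

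Within the first set alone 2, 1, 9 and 4 genes were called between genotypes at 0, 4, 8 and 24 h and 7 on average, where 6.56%, 3.69%, 14.5%, 5.46% and 13.3% of all genes were. Sqstm1 was among them at 8 h (-0.69, adjusted p = 2.3e-05) and 24 h (-0.38, adjusted p = 0.029). At 24 h the labelled knock-out arm of that set is library 22 alone, whose Selenow stood at 102% of the wild-type mean, and it is assumed to vary like the other groups. Its difference of responses there was called at 8 and 24 h, as for 10 and 4 of the 35 genes, and none was called at 4 h (9.12%, 4.31% and 0.372% of all genes). That set holds 7 labelled knock-out libraries, and libraries 13, 16, 19 and 22 are 4 of them, whose Selenow level is near that of wild-type cells. The second set has 1 library per group and was not fitted by itself.

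**Figure D5:**
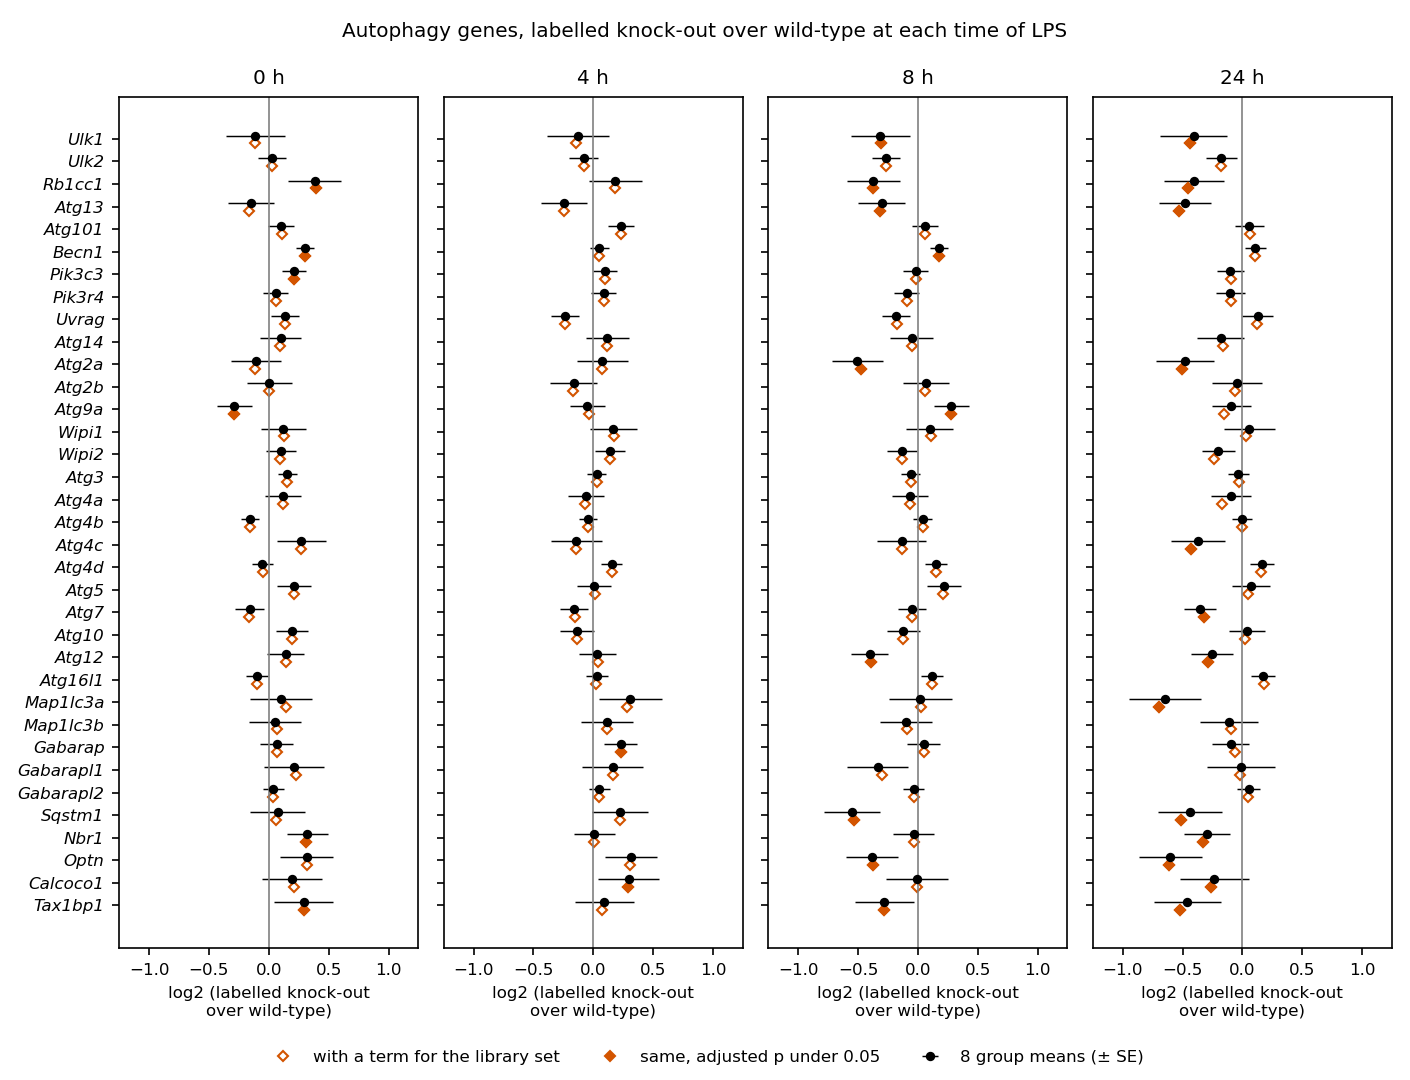
Log2 ratio of labelled knock-out over wild-type level for each of the 35 genes at 0, 4, 8 and 24 h, as black points with SE from the fit of 8 group means and as diamonds from the fit with a term for the library set, filled where that fit's adjusted p was under 0.05. Points lie right of 0 for most genes at 0 h, and the filled diamonds at 24 h, 13 in number, are all left of 0.

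The plot of genotype ratios shows that both fits give nearly the same ratios, and that the calls differ between the fits. Markers of other cells also moved with genotype. Of 8 markers of neutrophils and their precursors, 5 (Ngp, Ltf, Camp, S100a8 and S100a9) were higher in labelled knock-out cells on average. Their sum over the 8 ran from 75.8 to 224 CPM in labelled knock-out and from 57.7 to 333 CPM in wild-type libraries. Of 6 stromal markers 4 (Col1a1, Col1a2, Col3a1 and Sparc) were higher, with sums of 2.37 to 105 CPM in labelled knock-out and 1.86 to 41.0 CPM in wild-type libraries. Their part in the differences of autophagy genes was not tested.

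Outside the 35 genes, Sec62, a receptor for recovery of the endoplasmic reticulum, was called between genotypes, with an average log2 ratio of labelled knock-out to wild-type cells of 0.17 ± 0.049 (adjusted p = 0.0394), a call lost without any of several libraries (adjusted p up to 0.144, without library 23).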

How the data were processed

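Total RNA of the 23 libraries was sequenced and counted by the authors. The deposited table holds whole-number counts of fragments per gene, made with featureCounts 2.0.1 on exons of the Ensembl 101 annotation (GRCm38) from HISAT2 alignments, unstranded and with a fragment over several genes counted for each, per the file headers. Exonic length per gene is from the same deposited table. Gene symbols were matched by identifier to GENCODE mouse release 21.

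From the counts, edgeR 4.0.16 (R 4.3.3) was run on the means of the 8 groups, with TMM scaling, filterByExpr and the quasi-likelihood F test, and p-values were adjusted by Benjamini-Hochberg over the 18083 genes kept. All adjusted p-values are from this test unless another tool is named. An SE is |log2 fold change| over the root of F. The fit was tested on simulated counts first. Contrasts were LPS against 0 h and 24 h against 4 h within a genotype, labelled knock-out against wild type at each time and on average, and the interaction. Alternatives were DESeq2 1.42.0, limma-voom 3.58.1, other scalings, filters and thresholds, each library left out, and fits with the library sets. Members, lists and sets were chosen with earlier results of these data known. Values in every library are given, per role, for up to 4 genes called against 0 h with a log2 fold change of at least 1 in size (the largest), and for any called between genotypes. From each pathway list up to 4 called genes with the largest change are named. Genes named beside a lost call, a count of 5 or fewer or the set fits were chosen after their values were seen. A result of 1 pathway gene is not reported here.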

Additional observations from a re-analysis of the deposited data

How the results depend on the processing

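No paired analysis was possible because the labels' replicate numbers run from 1 to 23 and no 2 groups share one, and the library sets found in the data were fitted as a term instead. With the fold tested against 1.5, labelled knock-out cells had 18 calls after 4 h of LPS (4 higher, 14 lower), 12 after 8 h (6 higher, 6 lower), 3 after 24 h (2 higher, 1 lower) and 14 for 24 h against 4 h (12 higher, 2 lower), against 31, 25, 18 and 25 in the fit as reported. Wild-type cells had 17 after 4 h (3 higher), 10 after 8 h (6 higher, 4 lower), 6 after 24 h (6 higher, 0 lower) and 16 for 24 h against 4 h (14 higher, 2 lower), against 28, 28, 22 and 27. The count of genes lower at 4 h and back by 24 h was then 10 in labelled knock-out and 10 in wild-type cells, and the average over times called 0. At an adjusted p under 0.01, 2 genes were lower at 24 h and 2 at 24 h against 4 h in labelled knock-out cells, and the average called 0. With upper-quartile scaling 8 genes were higher at 24 h in labelled knock-out cells. That scaling moved the median of all genes there to -0.11 and the higher share of all calls from 52.0% to 42.4%, and in wild-type cells at 4 h the median was -0.16, against -0.12 with TMM and -0.05 with RLE. With only the groups compared in the fit, labelled knock-out cells had 11 calls at 24 h (2 lower) and 2 lower for 24 h against 4 h, and wild-type cells 6 lower at 8 h. Without libraries 13, 16, 19 and 22 the labelled knock-out counts were 10 at 24 h (8 higher, 2 lower) and 2 lower for 24 h against 4 h, and the average called 0. With the set term, 10 genes were lower at 24 h in labelled knock-out and 6 in wild-type cells. Within the first set these were 10 and 8. Between genotypes, the set term called 6, 2, 10 and 13 at 0, 4, 8 and 24 h, 10 on average and 0, 8 and 11 for the interaction at 4, 8 and 24 h, and the first set called 2, 1, 9, 4, 7, 0, 10 and 4. DESeq2 called 1 at 0 h and 2 on average, no filter 0 on average, and a filter of 1 CPM in 3 libraries 1 at 0 h. The cause of these changes was not tested. In the first set alone 2 values turned sign, Atg9a for 24 h against 4 h in wild-type cells (-0.22, against 0.11) and Atg13 at 8 h in labelled knock-out cells (-0.24, against 0.06). With each library left out in turn, labelled knock-out calls at 24 h ran from 8 to 20 (higher 6 to 14, lower 2 to 8) and lower calls for 24 h against 4 h from 2 to 5. Lower calls at 24 h in wild-type cells ran from 2 to 6. Between genotypes 0 or 1 gene was called at 0 h and 0 to 2 on average, and none at 4, 8 or 24 h or for the interaction. Of the single calls by LPS and the average, 8 of 19 in the Atg8 family, 2 of 28 in the ULK complex, 4 of 35 in the cargo receptors, 9 of 29 in the PI3-kinase complex, 12 of 62 in the conjugation enzymes and 6 of 32 in lipid transfer were lost without at least 1 library. Labelled knock-out cells at 24 h have 2 libraries, so without either the lone library is assumed to vary like the other groups.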
